A study of Rattus norvegicus with 54 samples.

Results

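Rats that worked without food during the drum hours (WRF) were set against rats that worked with food at hand (W), in hearts taken during the light phase. The comparison held 16 of the 54 rats of the series: 9 W and 7 WRF rats, chosen by their group and by a title hour of ZT1, ZT5 or ZT9, where ZT counts the hours from lights on. At ZT1 there were 3 W and 3 WRF rats, at ZT5 3 W and 2 WRF rats, and at ZT9 3 W and 2 WRF rats. The libraries WRF51 (ZT9) and WRF62 (ZT5) belong to these hours but were left out, because they held 31.5 and 170 fpkm of Ckm, the muscle creatine kinase, and only libraries of at least 500 fpkm were used. All rats were wild-type males of the Wistar strain, 7 to 8 weeks old when the protocol began, housed singly for 5 weeks under 12 h of light and 12 h of darkness.

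Both groups spent most of the light phase of each weekday in a slowly rotating drum meant to prevent sleep. W rats could eat at any hour, in the drum as well. WRF rats could eat at any hour outside the drum and had only water in it. Undisturbed control rats (C), with food at all hours, serve here as a reference level. All hearts were taken on a Saturday, when no rat worked and all had food, so the comparison concerns what remained after the working week and not the drum session itself. Each library came from 1 rat, from frozen hearts broken up with atria and ventricles together, but 10 of the 16 libraries held under 100 fpkm of the atrial gene Myl7, so the atrial share was unequal. How much each rat ate, and at which hours, is not in the labels. The labels also disagree on the hour of 4 of the 16 rats, all WRF: the title hour used here was ZT1 for WRF46 and WRF55, ZT5 for WRF50 and ZT9 for WRF41, and another label gives ZT21, ZT21, ZT1 and ZT5. The authors' staining methods give the title hour for WRF46 and for the other WRF rats that they name. They do not name WRF41, WRF50 or WRF55.

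The heart draws most of its ATP from the mitochondrial oxidation of fatty acids, and shifts between fatty acids and glucose as feeding and fasting alternate. Meal times act on the molecular clock of peripheral organs. In that clock the activators Bmal1 (listed as Arntl) and Clock drive the genes of their own repressors, the Per, Cry and Nr1d families, so that the levels of these genes swing over the day. In a rat on a fixed light cycle the heart clock has Arntl high near lights on and low late in the light phase, and the hour of sampling therefore enters every fit.

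Ckm, which the choice of libraries used, ran from 1149 to 1911 fpkm in W rats (median 1306) and from 1412 to 2037 fpkm in WRF rats (median 1651). Of the heart muscle genes that the choice did not use, Myh6, the main myosin heavy chain of the rat heart, ran from 1310 to 3241 fpkm in W rats and from 2055 to 3363 fpkm in WRF rats, and Tnnt2, the cardiac troponin T, from 5896 to 8871 and from 6606 to 8742 fpkm. Myl7, the atrial myosin light chain, exceeded 100 fpkm in W3, W17 and W19 and in WRF41, WRF46 and WRF50, and reached 20489 fpkm in W17. Adipoq, a hormone made by fat cells, exceeded 10 fpkm in 0 of 9 W rats and in 3 of 7 WRF rats (WRF46, WRF50 and WRF55). The lung epithelial gene Ager stayed at or below 6.69 fpkm, and the liver gene Alb at or below 181 fpkm (W1). The authors report sequencing depth, but fpkm values hold no read counts and the depth of each library was not used here. The sum of fpkm over all genes ran from 426269 to 675664 in W rats (median 509949) and from 465971 to 672323 in WRF rats (median 538334). The groups overlapped, with a difference of 0.128 on the log2 scale in a two-sided exact permutation test within hours (p = 0.166, smallest possible p 0.0005). Without W17 this difference was 0.179 (exact permutation p = 0.032).

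No gene passed in WRF against W rats at the light hours. By limma on log2(fpkm + 1) with the hour as a covariate, 0 of 10257 genes (0.0%) had an adjusted p under 0.05, and by Mann-Whitney tests 0 genes did. At an unadjusted p under 0.05 there were 816 genes (7.96%) by limma, 454 higher (4.43%) and 362 lower (3.53%) in WRF rats, and 813 genes by Mann-Whitney tests. The split between higher and lower genes moved with the scaling: median-of-ratios scaling gave 382 higher and 607 lower genes, and quantile normalization 320 and 649. The median difference of all genes was 0.01. Every p below is the unadjusted p of limma. Its adjusted value was 0.568 for Rbp4 and 0.585 or more for all other genes named, except the LOC498592 entries given at the end, so none of them passed. All differences are WRF minus W on the log2(fpkm + 1) scale, with standard errors, and this scale understates the ratio for genes of low level. In these whole hearts fewer cells of a type and less RNA per cell cannot be told apart, and the p-values measure the spread between single rats. A simulated table of the same design held 200 changed genes at once, all with a mean above 5 fpkm, and its noise was drawn for each gene separately. In it limma recovered 38 of 50 genes changed 1.5-fold and 46 of 50 changed 2-fold, with 18 false calls among 10257 genes. In the hearts single libraries moved whole gene groups together, which such noise leaves out. These shares hold for the simulation only, also because the adjusted p depends on how many genes change. They do not give the chance of finding such changes in these hearts, where Rbp4 differed by more than 2-fold and did not pass.

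Gene groups lay on both sides of the median of all genes. Genes of the mitochondrion, of the extracellular matrix and of fat cells lay above it. Interferon-induced genes, endothelial markers and most clock repressors lay below it. The plot of list medians gives each group by hour and beside the dark hours.

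**Figure D1:**
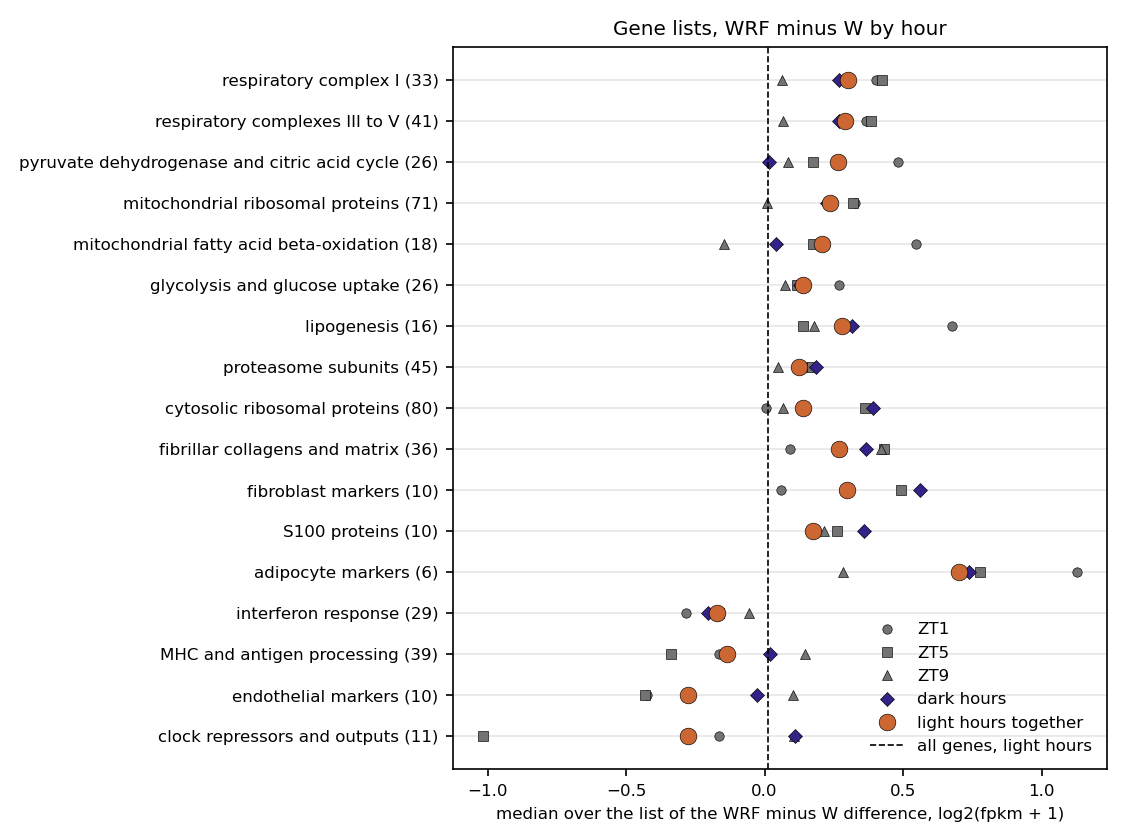
Median WRF minus W difference, in log2(fpkm + 1), of the measured members of 17 gene lists, with symbols for ZT1, ZT5, ZT9, the 3 light hours fitted together and the 3 dark hours fitted together. The dashed line is the median of all 10257 genes at the light hours (0.01); complex I lies at 0.30 and interferon response genes at -0.17, and most mitochondrial lists lie near the line at ZT9.

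Mitochondrial ribosomal proteins, which translate the few proteins encoded in mitochondrial DNA, gave the largest count of genes with a small p of any list. All 71 measured members were higher in WRF rats, 26 of them at an unadjusted p under 0.05 where 4.43% of all genes were, and their median difference was 0.24. Mrps18a, a protein of the small subunit, ran from 35 to 44.1 fpkm in W rats (median 39.6) and from 43.9 to 63.6 fpkm in WRF rats (median 47.0). Of the 7 WRF rats 6 lay above all W rats, so the overlap came down to 1 WRF rat, and C rats had a median of 37.1 fpkm. The difference was 0.32 ± 0.09 (p = 0.00221). Mrps25, also of the small subunit, ran from 47.2 to 70.2 fpkm in W rats (median 60.4) and from 63.7 to 77.4 fpkm in WRF rats (median 72.5), a difference of 0.28 ± 0.09 (p = 0.00789). Mrpl53, of the large subunit, ran from 20.9 to 29.3 fpkm (median 25.3) and from 26.3 to 40.5 fpkm (median 30.5), a difference of 0.31 ± 0.10 (p = 0.00889). For both genes 4 WRF rats lay above all W rats. Timm22, the channel that inserts carrier proteins into the inner membrane, was at 8.16 to 12.3 fpkm in W rats (median 10.5) and at 11.5 to 15.2 fpkm in WRF rats (median 13), a difference of 0.30 ± 0.09 (p = 0.00289). All WRF rats lay above the W median and 5 above all W rats.

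The respiratory chain and the citric acid cycle lay on the same side. In complex I, which takes electrons from NADH, 33 of 33 measured subunits were higher in WRF rats and 12 had an unadjusted p under 0.05 (median 0.30). For complexes III to V, which carry the electrons to oxygen and make ATP, these counts were 41 of 41 and 5 (median 0.29), and for pyruvate dehydrogenase and the citric acid cycle 26 of 26 and 8 (median 0.26). Ndufa9, an accessory subunit of complex I, ran from 189 to 452 fpkm in W rats (median 325) and from 360 to 498 fpkm in WRF rats (median 413), a difference of 0.37 ± 0.14 (p = 0.0178). All 7 WRF rats lay above the W median, but 1 only above all W rats. Ndufa10, of the same complex, differed by 0.28 ± 0.11. Pdhx, which holds the pyruvate dehydrogenase complex together, ran from 9.52 to 23.1 fpkm (median 20.1) and from 18.7 to 29.5 fpkm (median 24.6), a difference of 0.41 ± 0.15 (p = 0.0117). Mdh2, the mitochondrial malate dehydrogenase, differed by 0.37 ± 0.13 (p = 0.0118) and Uqcrc1, a core subunit of complex III, by 0.38 ± 0.17 (p = 0.0419). Sucla2, a succinyl-CoA synthetase subunit, differed by 0.34 ± 0.13, Uqcrh, of complex III, by 0.31 ± 0.15 and Atp5s, of the ATP synthase, by 0.17 ± 0.07. Of 18 genes of fatty acid beta-oxidation 17 were higher, and Echs1, an enoyl-CoA hydratase, alone had an unadjusted p under 0.05 (0.41 ± 0.17, p = 0.027). Acadl, the long-chain acyl-CoA dehydrogenase, differed by 0.32 ± 0.20 (p = 0.123). Glycolysis had 3 such genes among 26 (Tpi1, Pgk1 and Pkm, median 0.14), and 1 without W19 or WRF55.

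**Figure D2:**
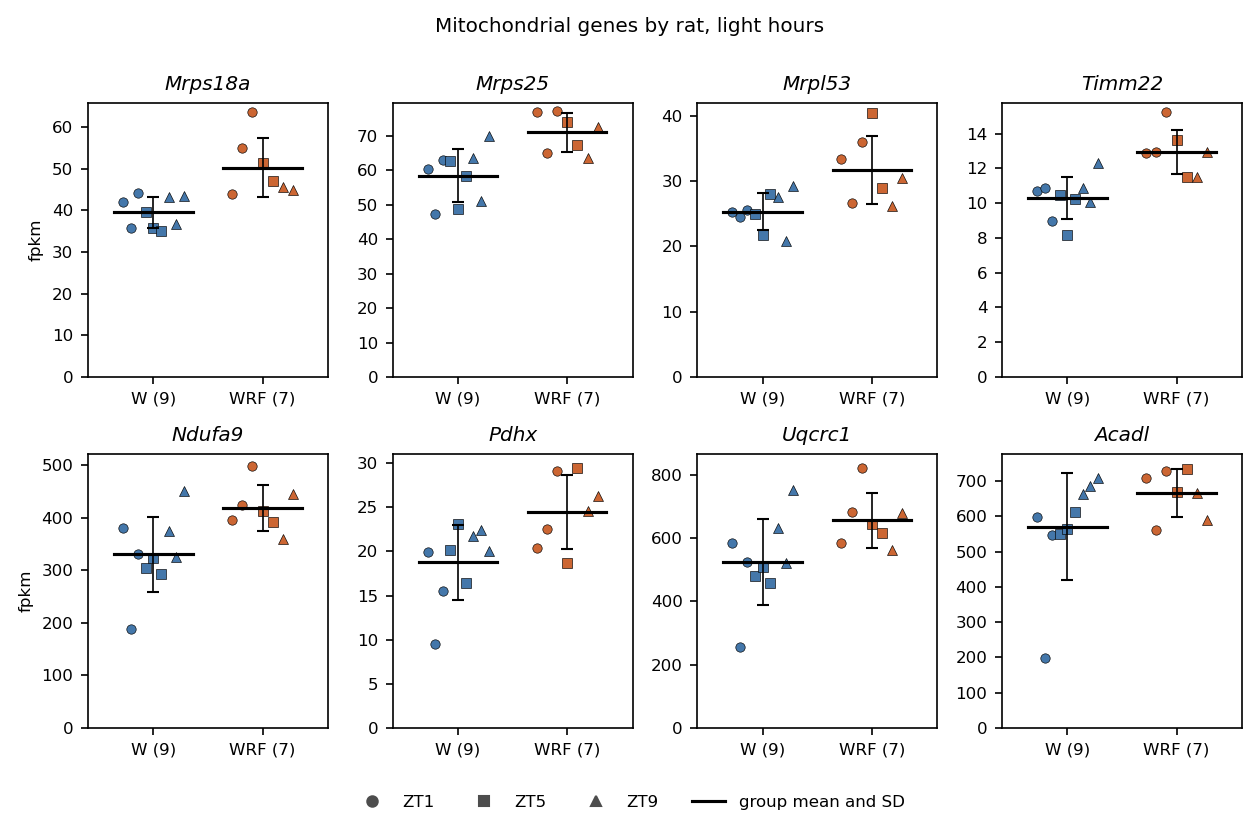
Level in fpkm of 8 mitochondrial genes in each of the 9 W and 7 WRF rats of the light hours, 1 panel per gene, with the group mean and SD. For Mrps18a 6 of 7 WRF rats lie above all W rats; W17 is the lowest W rat for Ndufa9, Pdhx, Uqcrc1 and Acadl.

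These mitochondrial differences moved with single libraries. W17, the W heart with the most atrial RNA, was the lowest W rat in each of these lists, with a median deviation from the mean of the 16 rats of -0.70 over the complex I genes and of -0.44 over the mitochondrial ribosomal genes. Without W17, 22 mitochondrial ribosomal genes, 4 complex I genes and 5 genes of pyruvate dehydrogenase and the citric acid cycle had an unadjusted p under 0.05, with medians of 0.17, 0.22 and 0.16. With the values brought to the same distribution in each rat (quantile normalization) the counts were 6, 0 and 1, and with WRF51 and WRF62 included the complex I median was -0.18. By hour, the median of the mitochondrial ribosomal genes was 0.33 at ZT1, 0.32 at ZT5 and 0.01 at ZT9. The counts moved in both directions with the treatment of the atrial share: without the 6 libraries above 100 fpkm of Myl7 they were 7, 7 and 2 (medians 0.18, 0.30 and 0.16), and with Myl7 as a covariate they were 39, 27 and 18. With 1 rat left out at a time the counts ran from 15 (WRF55) to 43 (W35), from 3 (WRF55) to 18 (W1 or W35) and from 3 (WRF55) to 20 (W1), and for complexes III to V from 0 (WRF55) to 18 (W35).

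Thrsp and Scd, both of fatty acid synthesis, had the largest absolute differences of all single genes in the table, carried by a few WRF rats. Rbp4, the carrier of retinol in blood, which liver and fat secrete, had the second smallest p after the LOC498592 entries. It ran from 0.605 to 23.6 fpkm in W rats (median 2.23) and from 5.51 to 109 fpkm in WRF rats (median 11.8), with W1 and WRF55 far above their groups. All 7 WRF rats lay above the W median, and 1 above all W rats. The difference was 1.90 ± 0.42 (p = 0.000328), and it was 2.0, 1.66 and 2.02 at ZT1, ZT5 and ZT9. Without the 3 libraries above 10 fpkm of Adipoq it was 1.53 (p = 0.00337), but in that setting the liver markers also lay higher, with a median of 1.33 and 8 of 10 at an unadjusted p under 0.05. Alb stood there at 2.64 (p = 0.00833). WRF1, WRF2 and WRF3 held 92.9, 49.2 and 121 fpkm of Alb, and the part of liver RNA in the Rbp4 difference was not tested.

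Thrsp, a nuclear factor that accompanies fatty acid synthesis, ran from 0.104 to 2.43 fpkm in W rats (median 0.277) and from 0.944 to 563 fpkm in WRF rats (median 5.03). WRF55 was highest, WRF46 followed at 55.8 fpkm and WRF50 at 24.0 fpkm, the other WRF rats reached at most 5.03 fpkm, and the median of C rats was 0.752 fpkm. The difference was 2.91 ± 0.83 (p = 0.00301). Scd, the desaturase that makes monounsaturated fatty acids, ran from 0.0713 to 2.46 fpkm (median 0.264) and from 0.402 to 71.8 fpkm (median 5.47), a difference of 2.13 ± 0.65 (p = 0.00469). Fasn, the fatty acid synthase, ran from 0.962 to 3.22 fpkm (median 1.37) and from 0.951 to 88.5 fpkm (median 3.80), a difference of 1.29 ± 0.56 (p = 0.0362). In both, 4 WRF rats lay above all W rats. The other 3 lay within the W range, except that the lowest WRF rat for Fasn was just below it. Pck1, which feeds the synthesis of glycerol in fat cells and of glucose in liver, ran from 0.153 to 1.94 fpkm (median 0.264) and from 1.17 to 93.3 fpkm (median 3.18), a difference of 2.08 ± 0.59 (p = 0.00275), with 5 WRF rats above all W rats. Of 16 lipogenesis genes 4 had an unadjusted p under 0.05, all higher in WRF rats (median 0.28), a count that ran from 2 to 6 with 1 rat left out at a time and was 2 without W33, WRF46, WRF50 or WRF55.

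The fat cell markers moved with them. Of 6 measured markers 6 were higher in WRF rats and 3 had an unadjusted p under 0.05 (median 0.70), or 1 without WRF50. Adipoq ran from 0 to 2.26 fpkm in W rats (median 0.0879) and from 0 to 103 fpkm in WRF rats (median 3.44), a difference of 2.03 ± 0.79 (p = 0.0202). Cfd, the complement factor adipsin, ran from 4.90 to 15.9 fpkm (median 8.31) and from 8.59 to 70.3 fpkm (median 20.8), a difference of 1.09 ± 0.32 (p = 0.00322). Retn, the fat hormone resistin, was listed at 0 in 5 of 9 W rats and reached 59.4 fpkm in WRF55. The summed level of the markers ran from 592 to 1504 fpkm in W rats and from 908 to 2605 fpkm in WRF rats. Most of it is Fabp4, which capillaries also make (0.31 ± 0.26, p = 0.252). Without WRF46, WRF50 and WRF55 the differences were 1.0 for Thrsp (p = 0.0096), 0.66 for Scd (p = 0.118), 1.03 for Pck1 (p = 0.0012), 0.09 for Fasn, 0.50 for Cfd (p = 0.0875) and 0.21 for Adipoq, and the median of the lipogenesis list was -0.01. The hours of these 3 rats are among those on which the labels disagree. What share of these genes' RNA came from fat attached to the heart was not tested.

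**Figure D3:**
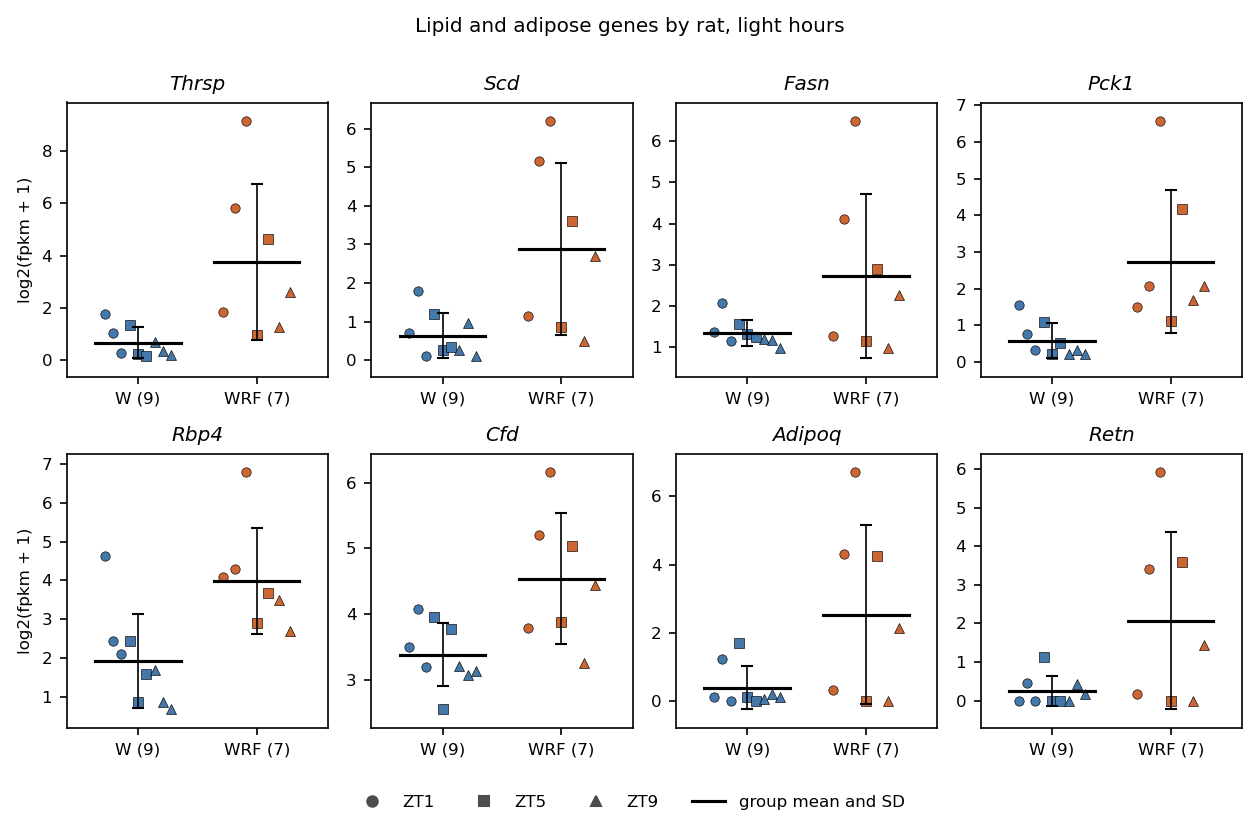
Level of 8 genes of lipid synthesis and fat cells, as log2(fpkm + 1), in each W and WRF rat of the light hours, with the group mean and SD. WRF55 is the highest rat in every panel, and WRF1, WRF2 and WRF3 lie near the W rats for Adipoq.

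Some genes outside these groups were also higher. Serhl2, a serine hydrolase of the peroxisome, ran from 5.49 to 16.5 fpkm in W rats (median 8.09) and from 9.46 to 20.6 fpkm in WRF rats (median 15.2), a difference of 0.79 ± 0.19 (p = 0.000668). C rats had a median of 14 fpkm, nearer to WRF than to W rats. Adprhl1, a heart protein of the ADP-ribosylhydrolase family, ran from 53 to 88.8 fpkm (median 71.9) and from 75.9 to 105 fpkm (median 89.9), a difference of 0.40 ± 0.10 (p = 0.00104). Ramp1, which turns the calcitonin receptor-like receptor into the receptor of the vasodilator CGRP, ran from 2.61 to 7.80 fpkm (median 3.77) and from 4.73 to 12.9 fpkm (median 7.25), a difference of 0.79 ± 0.20 (p = 0.00121). All 7 WRF rats lay above the W median for each of the 3 genes, which were themselves chosen for a small p. Hmga1, an architectural chromatin protein, ran from 21 to 41.4 fpkm (median 28.4) and from 28.7 to 52.2 fpkm (median 42.8), and 6 of 7 WRF rats lay above all W rats (0.52 ± 0.15, p = 0.00387). The other genes that the naming rule took on the higher side were the synaptic vesicle protein Syngr1 (0.45 ± 0.12, p = 0.00147), the p53 target Tp53i3 (0.36 ± 0.10, p = 0.0029), the smooth muscle phosphatase inhibitor Ppp1r14a (0.58 ± 0.17, p = 0.00298), the RNA polymerase subunit Polr2f (0.29 ± 0.08, p = 0.00343) and Bccip, which binds BRCA2 (0.28 ± 0.08, p = 0.00389).

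The machinery that makes and degrades proteins showed small differences. Of 45 proteasome subunits 7 had an unadjusted p under 0.05, all higher in WRF rats (median 0.13), where 4.43% of all genes were. The count was 1 under quantile normalization, 0 without the 6 libraries above 100 fpkm of Myl7, and with 1 rat left out at a time from 3 (W19, WRF41 or WRF55) to 18 (WRF3). Psmb7, a catalytic subunit, ran from 105 to 166 fpkm in W rats (median 135) and from 148 to 177 fpkm in WRF rats (median 164), a difference of 0.29 ± 0.10 (p = 0.00835). All WRF rats lay above the W median and 3 above all W rats. Psmb5 and Psmb6, also catalytic, differed by 0.30 ± 0.11 and 0.29 ± 0.11. Of 80 cytosolic ribosomal proteins 79 were higher in WRF rats, but 0 had an unadjusted p under 0.05. Their median of 0.14 was -0.05 after quantile normalization, so its sign depended on the scaling.

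Matrix genes leaned towards higher values, with wide spread. Of 36 measured genes of fibrillar collagens and matrix 33 were higher in WRF rats and 4 had an unadjusted p under 0.05 (median 0.27). The share of all genes higher at that level was 4.43%. Postn, a matrix protein of healing myocardium, ran from 1.52 to 5.74 fpkm in W rats (median 2.38) and from 1.74 to 11.5 fpkm in WRF rats (median 4.65), a difference of 0.80 ± 0.30 (p = 0.0156). Col1a1, the main collagen of scar, ran from 16 to 81.2 fpkm (median 47.5) and from 39.4 to 120 fpkm (median 76.4), a difference of 0.61 ± 0.29 (p = 0.0495). Loxl1, which crosslinks elastin, differed by 0.59 ± 0.26 (p = 0.0383). The groups overlapped for all of them, with 2 or 3 WRF rats above all W rats. Col1a2, the partner chain of Col1a1, and Ctsk, a collagen-cutting protease, differed by 0.44 ± 0.24 and 0.31 ± 0.19, both at an unadjusted p above 0.05. Fibroblast markers were higher for 9 of 10 genes (median 0.30), 1 at an unadjusted p under 0.05 (Col1a1; Thy1 differed by 0.41 ± 0.21), and their summed level ran from 841 to 1667 fpkm in W rats and from 1138 to 1924 fpkm in WRF rats; the part of fibroblast number was not tested. Without W33, W34 and W35 the matrix median was 0.08 and 0 of the 36 genes had an unadjusted p under 0.05; with 1 rat left out at a time the count ran from 0 (WRF41 or WRF50) to 11 (W17).

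The S100 proteins, small calcium-binding proteins, were higher for 10 of 10 genes, 3 of them at an unadjusted p under 0.05 (median 0.17). Of all genes 4.43% were higher at that level. S100a6 ran from 121 to 228 fpkm in W rats (median 177) and from 192 to 318 fpkm in WRF rats (median 225), a difference of 0.47 ± 0.14 (p = 0.00472). S100a4, which fibroblasts and leukocytes make, ran from 39.5 to 76.0 fpkm (median 49.0) and from 50.7 to 104 fpkm (median 76.1), a difference of 0.46 ± 0.16 (p = 0.0111). Every WRF rat lay above the W median for both. Of 10 genes of heart disease, a list chosen on these same rats and so no independent evidence, 3 were higher at an unadjusted p under 0.05 (S100a4, Postn and Col1a1) and 0 lower, and with 1 rat left out at a time the count ran from 1 (without WRF41 or WRF50) to 6 (without WRF2). The others of that list included Agt, the precursor of angiotensin (0.78 ± 0.48, p = 0.128), Igf1 (-0.07 ± 0.20) and the chemokine Ccl9 (-0.07 ± 0.21).

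Several genes that the naming rule took on the lower side act in or on the splicing apparatus. Clk4, a kinase of SR splicing factors, ran from 10.4 to 17.3 fpkm in W rats (median 12.2) and from 7.79 to 11.6 fpkm in WRF rats (median 9.07), a difference of -0.45 ± 0.13 (p = 0.00253). All WRF rats lay below the W median and 5 below all W rats. Clk1, a kinase of the same family, ran from 33.8 to 60.6 fpkm (median 49.5) and from 28.2 to 45.5 fpkm (median 37.6), a difference of -0.39 ± 0.13 (p = 0.00723). Luc7l3 and Rbm25, both tied to the U1 particle that finds the start of introns, differed by -0.33 ± 0.10 (p = 0.00367) and -0.28 ± 0.09 (p = 0.00577). Srsf11, an SR-like splicing factor, differed by -0.30 ± 0.10 and Prpf38b by -0.27 ± 0.10. C rats had medians of 10.2 fpkm for Clk4, 35.2 fpkm for Clk1 and 18.7 fpkm for Luc7l3, below the W medians. The whole list of 54 spliceosome genes did not lean that way: 5 had an unadjusted p under 0.05 on the lower side and 1 on the higher side, Snrpb (0.21 ± 0.08, p = 0.0159), and the median was 0.05. Without WRF2 the lower count was 2.

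Other genes of the lower side, taken by the naming rule, came from signalling and from gene regulation. They were the zinc finger genes Zfp958 (-0.53 ± 0.15) and Zfp386 (-0.43 ± 0.13), the small G protein activator Rapgef5 (-0.63 ± 0.19), the NAD hydrolase Cd38 (-0.50 ± 0.15), the sphingosine phosphate receptor S1pr1 (-0.46 ± 0.15), the tetraspanin Tspan13 (-0.37 ± 0.11), the kinase Map4k2 (-0.40 ± 0.12), the microRNA cofactor Tnrc6a (-0.37 ± 0.11), the chromatin protein Kmt2e (-0.43 ± 0.14), Fam102b (-0.51 ± 0.16) and Cyyr1 (-0.49 ± 0.16). In 7 of these 11 genes all 7 WRF rats lay below the W median. The rule chose the genes for a small p, so this separation follows in part from the choice and is no further evidence.

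Endothelial markers were split. Of 10 measured markers 8 were lower in WRF rats and 4 had an unadjusted p under 0.05 (Flt1, Cdh5, Pecam1 and Tek), where 3.53% of all genes had one on the lower side (median -0.28, and 0.10 at ZT9). Flt1, a receptor for the growth factor VEGF, ran from 14 to 26.5 fpkm in W rats (median 18.5) and from 8.71 to 17.2 fpkm in WRF rats (median 12.8), a difference of -0.48 ± 0.15 (p = 0.00536). All WRF rats lay below the W median, and C rats had a median of 15.9 fpkm. Pecam1, an adhesion molecule of endothelial junctions, ran from 54.1 to 88.7 fpkm (median 64.4) and from 46.4 to 83.5 fpkm (median 52.9), a difference of -0.31 ± 0.13 (p = 0.0331). Here WRF41 lay far above the other WRF rats, 5 of which were below all W rats. Kdr, the main VEGF receptor, differed by -0.28 ± 0.13 (p = 0.0522). The summed level of the 10 markers, most of it Fabp4, ran from 742 to 1713 fpkm in W rats and from 1000 to 2336 fpkm in WRF rats, with the median higher in WRF rats (1438 against 1343 fpkm), so the sum did not follow the single markers. With 1 rat left out at a time the count ran from 1 (W18, WRF2 or WRF55) to 6 (WRF1 or WRF41). Without the 3 libraries above 10 fpkm of Adipoq 0 of the 10 had an unadjusted p under 0.05 (median -0.13). Of all 10257 genes 82 had one on the lower side in that setting, against 362 in the main fit.

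Interferon-induced genes, part of the defence against viruses, were lower for 27 of 29 genes, 5 of them at an unadjusted p under 0.05 (median -0.17). Of all genes 3.53% were lower at that level. Ifit2, which binds viral RNA, ran from 5.28 to 9.84 fpkm in W rats (median 7.77) and from 3.86 to 7.21 fpkm in WRF rats (median 5.77), a difference of -0.39 ± 0.13 (p = 0.00806). Oasl2, of the oligoadenylate synthetase family, ran from 1.95 to 3.74 fpkm (median 2.85) and from 0.888 to 2.92 fpkm (median 1.77), a difference of -0.50 ± 0.16 (p = 0.00738). For Oasl2 5 WRF rats lay below all W rats. Ifih1, a sensor of viral RNA, differed by -0.28 ± 0.12 (p = 0.0367). Of 39 genes of MHC and antigen processing 34 were lower (median -0.14), and RT1-N3, a class I gene whose reads may be shared with its near copies, had the 1 unadjusted p under 0.05 (-0.31 ± 0.10, p = 0.00763). A count of 1 in 39 does not exceed the 3.53% of all genes. The MHC median was 0.15 at ZT9 and 0.02 at the dark hours. Leaving out the 3 libraries above 10 fpkm of Adipoq took the genes lower at an unadjusted p under 0.05 from 362 to 82 of 10257. In that setting 0 of the 29 interferon genes had such a p (median -0.10). With WRF51 and WRF62 included the median of the interferon genes was 0.12. With 1 rat left out at a time their count ran from 2 (WRF46 or WRF55) to 13 (WRF41), and that of the MHC genes was 12 without WRF41. Of 9 transcription factors, listed because their motifs drew attention earlier in these rats, 3 had an unadjusted p under 0.05 and all 3 were lower: Erg (-0.38 ± 0.15), Klf3 (-0.27 ± 0.12) and Irf8 (-0.40 ± 0.18). The other 6 were Elk1 (0.18 ± 0.09), Elk4 (-0.21 ± 0.11), Ets1 (-0.26 ± 0.15), Etv1 (-0.31 ± 0.21), Nrf1 (-0.07 ± 0.12) and Klf6 (-0.16 ± 0.10). The count of 3 was 0 without WRF2, WRF50 or WRF55 and 6 without W35 or WRF41.

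**Figure D4:**
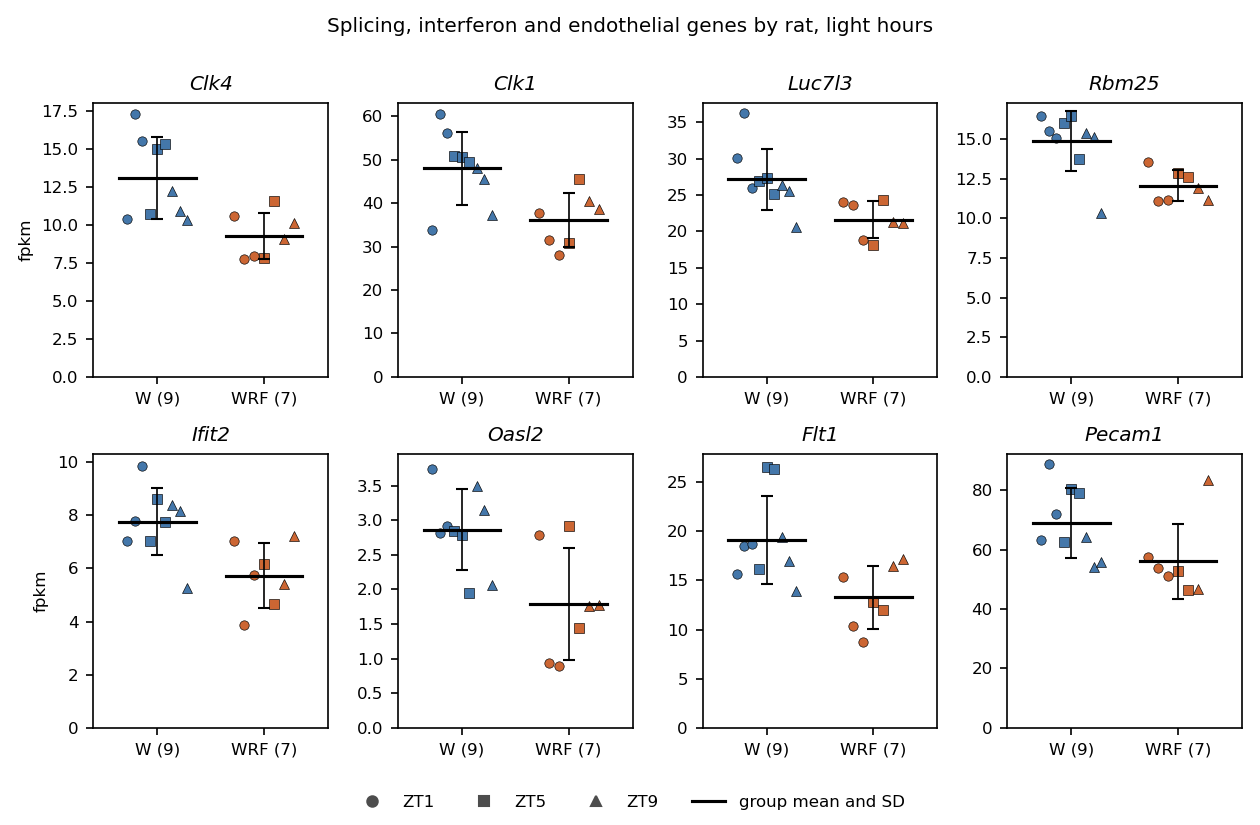
Level in fpkm of 8 genes with lower values in WRF rats, for each W and WRF rat of the light hours, with the group mean and SD. For Clk4 and Oasl2 5 of 7 WRF rats lie below all W rats, and WRF41 stands apart from the other WRF rats for Pecam1.

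The clock genes are shown with the promoter letters through which they are linked. The activator pair binds the E-box, the letters CACGTG, and the Nr1d proteins bind elements that include TAGGTCA. Each promoter is 250 bases upstream of a RefSeq start site of the build GRCr8, which is a later build than that of the expression files, and was searched on both strands. The capitals mark the match, 191 bases before the second listed start of Nr1d1 (chr10:84229455-84229704, minus strand) and 16 bases before the start of Bmal1 (chr1:176766078-176766327, plus strand).
Nr1d1: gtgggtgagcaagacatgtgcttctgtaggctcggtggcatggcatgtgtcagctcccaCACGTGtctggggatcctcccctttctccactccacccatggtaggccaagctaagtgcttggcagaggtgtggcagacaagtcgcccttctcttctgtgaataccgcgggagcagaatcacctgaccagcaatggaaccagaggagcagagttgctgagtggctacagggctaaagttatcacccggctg
Bmal1: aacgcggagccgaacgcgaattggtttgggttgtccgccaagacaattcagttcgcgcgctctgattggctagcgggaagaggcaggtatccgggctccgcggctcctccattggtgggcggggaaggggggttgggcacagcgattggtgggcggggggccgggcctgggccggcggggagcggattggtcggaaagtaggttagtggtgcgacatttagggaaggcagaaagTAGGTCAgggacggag
The first listed start of Nr1d1 had 0 matches. CACGTG occurred in 1872 of 33469 promoters (5.59%) and TAGGTCA in 755 (2.26%), and a match is a description of the letters only.

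Arntl was higher in each rat of ZT1 than in any rat of ZT9, in both groups. At ZT1 it stood at 12.9, 10.6 and 2.52 fpkm in W1, W17 and W33 and at 11, 9.54 and 6.00 fpkm in WRF1, WRF46 and WRF55. At ZT5 it stood at 5.96, 1.73 and 0.908 fpkm in W3, W18 and W34 and at 3.00 and 13.4 fpkm in WRF2 and WRF50. At ZT9 all 5 rats lay between 0.841 and 1.15 fpkm. WRF50 was thus the highest of all 16 rats at an hour at which the W rats had at most 5.96 fpkm, and it is 1 of the rats for which another label gives ZT1. W33 was lower in Arntl than the other rats of ZT1. The authors report a W replicate series whose clock genes ran out of phase with the other series, without naming its rats. Whether W33 belongs to that series was not tested.

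The W and WRF rats differed in the repressors mostly at ZT5, where C rats lay with the WRF rats. Of 11 measured repressors and outputs 9 were lower, 2 of them at an unadjusted p under 0.05, and the median was -0.28. By hour it was -0.17 at ZT1, -1.02 at ZT5 and 0.11 at ZT9. As the median deviation from the mean of the 16 rats, the C rats of ZT5 stood at -0.32, -0.32 and -0.61, WRF2 and WRF50 at -0.42 and -0.71 and W3 at -0.37, and W18 and W34 stood apart at 0.84 and 0.61. Per2 ran from 1.35 to 10.3 fpkm in W rats (median 4.52) and from 1.02 to 5.77 fpkm in WRF rats (median 1.33), a difference of -0.71 ± 0.29 (p = 0.0247). At ZT5 it stood at 1.44, 8.92 and 10.3 fpkm in W3, W18 and W34 and at 1.48 and 1.09 fpkm in WRF2 and WRF50, so the W rats of that hour reached from the level of the WRF rats to far above it. Per3 differed by -0.58 ± 0.26 (p = 0.042). Dbp, a transcription factor under direct clock control, stood at ZT5 at 19.7, 69.2 and 51.8 fpkm in W rats, at 39.9 fpkm in WRF2 and at 7.47 fpkm in WRF50 (all hours -0.25 ± 0.51, p = 0.635). The clock output Tef stood at ZT5 at 11, 31.2 and 35.4 fpkm in W rats and at 11.3 and 10.6 fpkm in WRF rats, so W3 was with the WRF rats here too (all hours -0.38 ± 0.25, p = 0.145). Nr1d1 differed by 0.39 ± 0.30 (p = 0.212), Nr1d2 by -0.28 ± 0.23, Per1 by -0.50 ± 0.35, Cry1 by -0.16 ± 0.22 and Ciart by -0.43 ± 0.46, and of the 5 activators 0 had an unadjusted p under 0.05.

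Taking the hour from the other label also changed the rats: WRF46 and WRF55 left the comparison, and WRF42 and WRF52, titled ZT13, entered it. In that setting the median of the repressors was -0.13, and 0 of the 11 had an unadjusted p under 0.05. Without W33, W34 and W35 these values were -0.15 and 0, and the count was 0 without WRF2 or without WRF50.

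**Figure D5:**
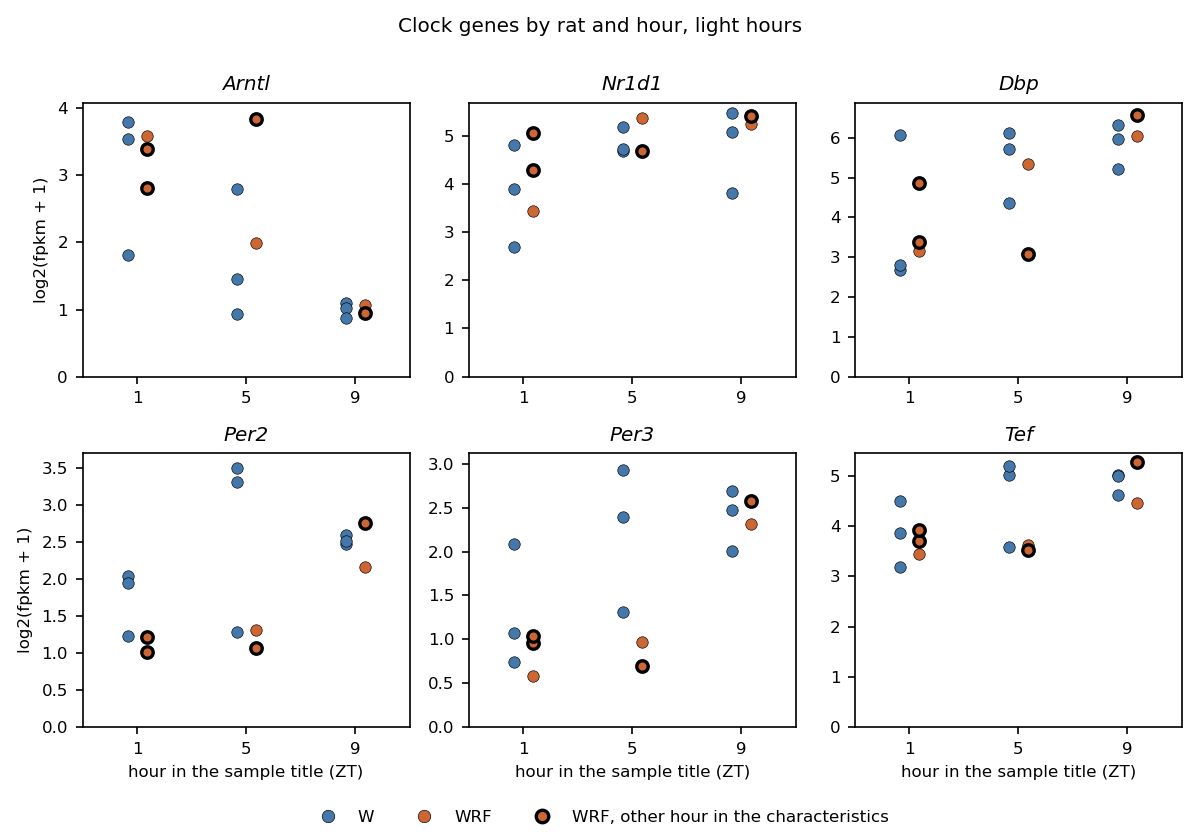
Level of 6 clock genes, as log2(fpkm + 1), against the hour in the title (ZT1, ZT5, ZT9), with 1 point per W or WRF rat and thick rings around the 4 WRF rats for which another label gives a different hour. All 5 rats of ZT9 lie below all 6 rats of ZT1 for Arntl, and WRF50 at ZT5 has the highest Arntl (13.4 fpkm) and the lowest Dbp of that hour (7.47 fpkm).

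Whether the difference between WRF and W rats itself depended on the hour was tested as an interaction of group and hour. By limma 0 genes passed, and 116 genes (1.13%) had an unadjusted p under 0.05. The genes of smallest p with at least 5 fpkm on average were the chemokine Cxcl9 (p = 0.0054), the vesicle protein Rab3b (p = 0.00594), the M-band protein Myom2 (p = 0.00658), Ppp1r14a (p = 0.00722) and the malic enzyme Me1 (p = 0.00767). Cxcl9 differed by -0.57, -1.33 and 0.47 at ZT1, ZT5 and ZT9, and Ppp1r14a by 0.35, 1.28 and 0.17. Hour by hour, 836 genes (8.15%) had an unadjusted p under 0.05 at ZT1, 498 (4.86%) at ZT5 and 82 (0.799%) at ZT9, and 0 passed at any of the 3. ZT1 held 3 WRF rats, and ZT5 and ZT9 held 2 each, so the counts at ZT5 and ZT9 differed at equal numbers. The cause was not tested.

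The same comparison at the dark hours (ZT13, ZT17 and ZT21), in other rats, called 564 genes (5.5%), 525 higher (5.12%) and 39 lower (0.38%), by limma in a fit of all 34 rats. That count was 0 under median-of-ratios scaling and 0 without W33 to W38. Among genes described above, the calls included Mrps18a (0.35 in the dark hours, adjusted p = 0.0387), S100a6 (0.81, adjusted p = 0.018), S100a4 (0.83, adjusted p = 0.0278), Postn (1.07, adjusted p = 0.0406) and Ramp1 (0.94, adjusted p = 0.036). The difference between light and dark effects was itself tested by limma: 0 genes passed and 293 (2.86%) had an unadjusted p under 0.05, so no gene was shown to respond at one phase and not at the other. The smallest p among genes of at least 5 fpkm belonged to Tcp11l2 (light minus dark 0.61, p = 0.00274), followed by Fcer2, Sptssa, Man1c1 and Adam19, all with an adjusted p of 0.967. Cytosolic ribosomal proteins had medians of 0.14 at the light and 0.39 at the dark hours, and 1 of 80 had an unadjusted p under 0.05 for the difference. Mitochondrial ribosomal proteins had medians of 0.24 and 0.23, with 0 of 71.

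A pair of entries was named after their values were seen. LOC498592, listed 4 times with identical values and with no described function in the files, had the smallest p of the table. It ran from 16.2 to 37.8 fpkm in W rats (median 23.3) and from 10.4 to 18.3 fpkm in WRF rats (median 14.1), with 6 of 7 WRF rats below all W rats, a difference of -0.80 ± 0.15 (limma adjusted p = 0.19). Counted once, the smallest adjusted p of the table was 0.585. Without WRF3 its 4 entries passed, with a difference of -0.90 (limma adjusted p = 0.0368), and no other gene did. That adjustment counted the 4 copies as separate genes, which lowers their adjusted p, as the 0.19 and 0.585 above show. The fit without WRF3 was not repeated with each entry counted once, so this pass is no evidence for a called gene. Vom2r52, a gene of the vomeronasal receptor family, was the 1 of 9998 distinct entries (0.01%) with all WRF rats below all W rats, and 0 had all WRF rats above. It ran from 0.786 to 1.5 fpkm and from 0.380 to 0.773 fpkm, levels close to the lower limit of the table.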

How the data were processed

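Heart RNA of 54 rats was measured, 1 polyA library per rat, and 16 rats entered the comparison of WRF with W rats at the light hours. The deposited values are fpkm, which the authors estimated with Cufflinks from reads aligned with TopHat2 to rn6. Program versions are not given in the sources used here. The table holds 10257 genes, all above 1 fpkm in at least 18 rats; 259 entries repeat an earlier entry exactly, which leaves 9998. No values were rescaled, 0 columns were left unused, and the read depth cannot be had from fpkm.

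Groups and hours came from the titles. Differences were fitted on log2(fpkm + 1) in limma 3.58.1 (R 4.3.3) with the hour as a factor, a trend in the variance and Benjamini-Hochberg adjustment over all genes (adjusted p under 0.05). Group by hour was an F test, and light against dark a contrast over 34 rats. Sums of fpkm were compared by a two-sided exact permutation within hours (2000 arrangements) in Python 3.11.15 with numpy 2.4.6. Mann-Whitney tests were run in R, tables handled with pandas 2.3.3 and scipy 1.17.1, and plots made with matplotlib 3.10.9. The fit was tested on simulated data with 200 planted genes.

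The members, the 37 pathway lists and 15 marker lists, and the tests were chosen with earlier results of these data known. The naming rule took the 15 genes per direction with the smallest p (mean of at least 5 fpkm, same sign at all 3 hours, no placeholder symbol). It added the 5 with the smallest p of each interaction, up to 3 per pathway list, all members of the clock, motif factor and disease lists, and every marker; 1 gene taken by the rule is not reported here. Alternatives were another pseudocount (0.1), filter, scaling, test, covariate and hour label, and leaving out rats; those without the libraries above 10 fpkm of Adipoq and without WRF50 and WRF55 were chosen after seeing the data. The replicate numbers 1 and 3 occur in both groups. Their deviations correlated at 0.391 (both ZT1) and 0.00919 (ZT5 and ZT9, so the hour differed as well). W1 and WRF1 were also the most alike of any 2 of the 16 libraries (Pearson r = 0.991). The fit with a replicate block used a correlation of 0.629. Equal numbers were not read as pairs in the main fit, and whether they mark a shared batch was not tested. Columns of the authors' own comparisons were not present in the table. Promoters came from RefSeq (GRCr8).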

Additional observations from a re-analysis of the deposited data

Results flagged for a closer look

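In 238 sets of 1 gene in 1 group, 20 had a highest or lowest rat whose gap to the next exceeded Dixon's 95% limit; chance alone flags about 1 in 20 sets. Of the 20, 8 concerned W17, the W rat with the most Myl7. W17 lay lowest in its group for Fabp4 (369 fpkm), Ndufa9 (189), Pdhx (9.52), Uqcrc1 (254), Echs1 (49.6) and Acadl (199), and highest for Agt (11.2) and the transcription factor Etv1 (9.46).

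WRF55 lay highest among WRF rats for Rbp4 (109 fpkm), Pparg, the nuclear receptor of fat cells (8.40), and Agt (33.7). WRF41 lay apart for Hmga1 (lowest, 28.7 fpkm), Irf8 (highest, 4.28) and Pecam1 (highest, 83.5). Single rats stood apart for Rbp4 in W1 (23.6 fpkm), Cd38 in W18 (10.3), Rbm25 in W35 (lowest, 10.3), the matrix protein Cilp in W3 (2.58), Retn in W3 (1.19) and the lymphatic chemokine Ccl21 in WRF3 (lowest, 24.1).

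The libraries kept out of the comparison held signals of other tissues. WRF51 had 1419 fpkm of Ager against at most 6.69 fpkm in the 16 rats compared, and WRF62 had 106 fpkm of the T cell receptor subunit Cd3e.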

How the results depend on the processing

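In the 32 alternatives of the comparison at the light hours 0 genes passed, except without WRF3, where 4 entries passed, all copies of LOC498592. The adjustment there counted these copies as separate genes. The 816 genes at an unadjusted p under 0.05 became 1228 without W33, W34 and W35, 329 without WRF50 and WRF55, and 290 without the libraries above 10 fpkm of Adipoq. With 1 rat left out at a time they ran from 419 (without WRF55) to 1477 (without W35), and were 1457 without WRF3. The cause of these shifts was not tested. The fit with a replicate block gave 671 such genes and 0 passed. For light against dark the 293 genes became 104 without W33 to W38 and 125 with WRF51 and WRF62. Genes of the group by hour test were 162 under median-of-ratios scaling. The difference in summed fpkm ran from 0.0822 to 0.179, the latter without W17 (exact permutation p = 0.032). Of 119 genes named for their difference, 83 kept their sign in every alternative that held them and 36 did not. Genes with a mean under 5 fpkm were absent from the alternative with that filter, so they had 31 alternatives. For most of the 36 the alternative was the one with WRF51 and WRF62; under quantile normalization Myh6 turned. The low genes are limited most, as read depth was not used and no counting error can be given for them.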

Other observations

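Single genes outside the groups described above also had an unadjusted p of limma under 0.05. Of 29 chemokine and receptor genes 1 was higher at such a p (median 0.04), where 4.43% of all genes were. Of 34 genes of calcium cycling and ion channels 1 was lower and 2 were higher (median -0.05), where 3.53% of all genes were lower. Of 6 neutrophil and mast cell markers 2 were higher, and of 10 macrophage markers 0. Cma1, a chymase of mast cells, ran from 0.758 to 4.57 fpkm in W rats (median 2.38) and from 2.82 to 9.23 fpkm in WRF rats (median 5.03). All WRF rats lay above the W median and 4 above all W rats (0.81 ± 0.26, p = 0.00569, adjusted p = 0.585). Hcn4, the pacemaker channel of the conduction system, ran from 0.996 to 3.67 fpkm and from 0.240 to 3.70 fpkm, with 4 WRF rats below all W rats and 1 above (-0.70 ± 0.24, p = 0.0104, adjusted p = 0.585). It differed by -1.07 at ZT1, -1.06 at ZT5 and 0.13 at ZT9. Ccl21 differed by 1.04 ± 0.41 (p = 0.0209, adjusted p = 0.585), with 2.12 at ZT1 and 0.04 at ZT9.

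Stress markers of the ventricle did not go together. Acta1, the skeletal actin that a loaded heart re-expresses, ran from 36.7 to 430 fpkm in W rats (median 278) and from 113 to 863 fpkm in WRF rats (median 437; 1.09 ± 0.53, p = 0.0572, adjusted p = 0.585). Nppb, the natriuretic peptide BNP, ran from 133 to 893 fpkm and from 71.8 to 265 fpkm (-0.71 ± 0.38, p = 0.0806, adjusted p = 0.585), with 4 WRF rats below all W rats. Of 14 hypertrophy and stretch markers 0 had an unadjusted p under 0.05 (median 0.13).

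By hour, uncoupling protein Ucp3, a target of fatty acid sensing in muscle, differed by 1.16 at ZT1, 1.08 at ZT5 and -0.13 at ZT9, and Plin5, a coat protein of lipid droplets, by 0.92, 0.92 and -0.33. For Ucp3 the light minus dark difference was 1.31 (limma p = 0.00776, adjusted p = 0.967). Of 27 fasting lipid genes 1 was higher at an unadjusted p of limma under 0.05 and 0 lower, where 4.43% of all genes were higher. Their medians at ZT1, ZT5 and ZT9 were 0.21, 0.05 and -0.07, so the list did not share the differences of Ucp3 and Plin5 in size.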
